A study of Homo sapiens with 47 samples.

Results

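The genes for the U4, U5 and U6 small nuclear RNAs (snRNAs) were compared between wild-type and EAF1-mutant HEK293T cells. They are a chosen list of symbols among genes annotated with the biotype snRNA, 10 of the 58395 genes counted and 10 of the 1900 snRNA genes among them. The list does not hold every U6 gene, and RNU6-7 and RNU6-8, which were also counted, are described separately. The 10 are 2 U4 genes (RNU4-1 and RNU4-2), 5 U5 genes (RNU5A-1, RNU5B-1, RNU5D-1, RNU5E-1 and RNU5F-1) and 3 U6 genes (RNU6-1, RNU6-2 and RNU6-9). All 10 passed edgeR's filter on low counts, which 28025 genes passed.

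HEK293T is a human embryonic kidney cell line, and total RNA depleted of ribosomal RNA was sequenced from 3 libraries of unmodified cells and 3 of the mutant. The mutant is a single cell line made by CRISPR knock-in, in which alanines replace residues of the MED26-binding site on both alleles of EAF1, a subunit shared by elongation complexes that Mediator recruits. A property of that line and an effect of the mutation therefore cannot be told apart. Depth was 59137210, 52541541 and 55637032 counts for wild-type replicates 1 to 3, and 57198018, 53369621 and 66611451 counts for the mutant replicates. The study's methods call its replicates biological in general terms, but nothing in the labels says that libraries of a group came from separate cultures, and the p values measure the spread between these libraries.

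The spliceosome removes introns with the help of snRNAs, each packed with proteins into a small nuclear ribonucleoprotein (snRNP). U4 and U6 pair with each other along part of their length and join U5 in the tri-snRNP; U4 leaves when the spliceosome is activated, U6 then takes part in catalysis, and U5 holds the exons in place. U4 and U5 are made by RNA polymerase II (Pol II), carry a site that binds the Sm protein ring and receive a trimethylated cap, whereas U6 is made by RNA polymerase III (Pol III), ends in a run of T in its gene where that polymerase stops, and is bound by the LSm ring. The Little elongation complex (LEC), of which EAF1 is a part, is known to act at Pol II-transcribed snRNA genes, so the question here was how U4 and U5 on the Pol II side compared with U6 on the Pol III side.

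The sequences show how far reads can be assigned to single genes. RNU4-1 (ENSG00000200795, chr12:120293097-120293237) and RNU4-2 (ENSG00000202538, chr12:120291763-120291903) lie side by side on the minus strand of GRCh38, outside any other annotated gene. Both RNAs are 141 bases long and identical at 97.2% of positions. Counted from 1 at the 5′ end with RNU4-1 as reference, the 4 differences are C37T, G88A, C99A and C113T, shown in capitals:
RNU4-1: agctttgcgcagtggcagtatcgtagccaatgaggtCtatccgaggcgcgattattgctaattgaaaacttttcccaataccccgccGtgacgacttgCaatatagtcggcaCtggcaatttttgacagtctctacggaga
RNU4-2: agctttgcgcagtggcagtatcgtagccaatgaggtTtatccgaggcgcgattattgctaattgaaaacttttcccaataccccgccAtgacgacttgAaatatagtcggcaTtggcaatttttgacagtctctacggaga

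The U5 genes differ more among themselves, with pairwise identities of 78.8% to 94.0% over 10 pairs. RNU5A-1 (ENSG00000199568, chr15:65296051-65296166) and RNU5B-1 (ENSG00000200156, chr15:65304677-65304792) lie near each other on the plus strand, RNU5A-1 within an intron of PARP16, which is on the opposite strand. RNU5D-1 (ENSG00000200169, chr1:44731055-44731170) and RNU5F-1 (ENSG00000199377, chr1:44721786-44721902) are neighbours on the minus strand, RNU5F-1 within an intron of ARMH1 on the opposite strand. RNU5E-1 (ENSG00000199347, chr1:11908152-11908271, plus strand) overlaps an exon of a long noncoding RNA gene on its own strand that was not among the genes counted.

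RNU6-1 (ENSG00000206625, chr15:67839939-67840045, minus strand), RNU6-2 (ENSG00000207357, chr19:1021522-1021628, plus strand) and RNU6-9 (ENSG00000207507, chr19:893484-893590, plus strand) encode the same RNA of 107 bases. RNU6-1 lies in an intron of a long noncoding RNA gene on the opposite strand, and no annotated gene overlaps RNU6-2 or RNU6-9. This sequence occurs 7 times in the genome. For each of these U6 genes, 43 other counted snRNA genes are at least 95% identical to it. That number includes the rest of the U6 genes named here, which have the same sequence. How reads that fit several places were counted is not stated in the study's methods, and a value for a single U6 gene is uncertain, as is, to a smaller extent, the division of reads between RNU4-1 and RNU4-2. The use of strand in counting is not stated either, so reads of RNU5A-1, RNU5F-1 and RNU6-1 cannot be told apart from those of the genes on the other strand.

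All 7 U4 and U5 genes had lower levels in each EAF1-mutant library than in any wild-type library, and 5 of the 7 were called lower. None of the 3 listed U6 genes was called lower by edgeR or DESeq2. Outside the list, RNU6-8 was called lower by edgeR but not by DESeq2. RNU6-9 was called higher by edgeR, while the groups overlapped for RNU6-1 and RNU6-2. Calls were made with edgeR's quasi-likelihood test and required an adjusted p under 0.01 together with a log2 fold change (log2FC) larger than 0.5 in either direction, the thresholds of the study's methods. By this rule 9.36% of all tested genes were called lower and 11.0% higher, the groups did not overlap for 57.3% of tested genes, and 56.2% had an unadjusted p under 0.05. Against those shares stand 5 of 10 members called lower, 1 of 10 called higher and 8 of 10 whose groups did not overlap. The median log2FC was -0.75 for the U4 genes, -1.06 for the U5 genes and 0.29 for the U6 genes, beside 0.01 for all tested genes. In bulk RNA, fewer cells with an RNA and less of it per cell cannot be told apart.

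**Figure D1:**
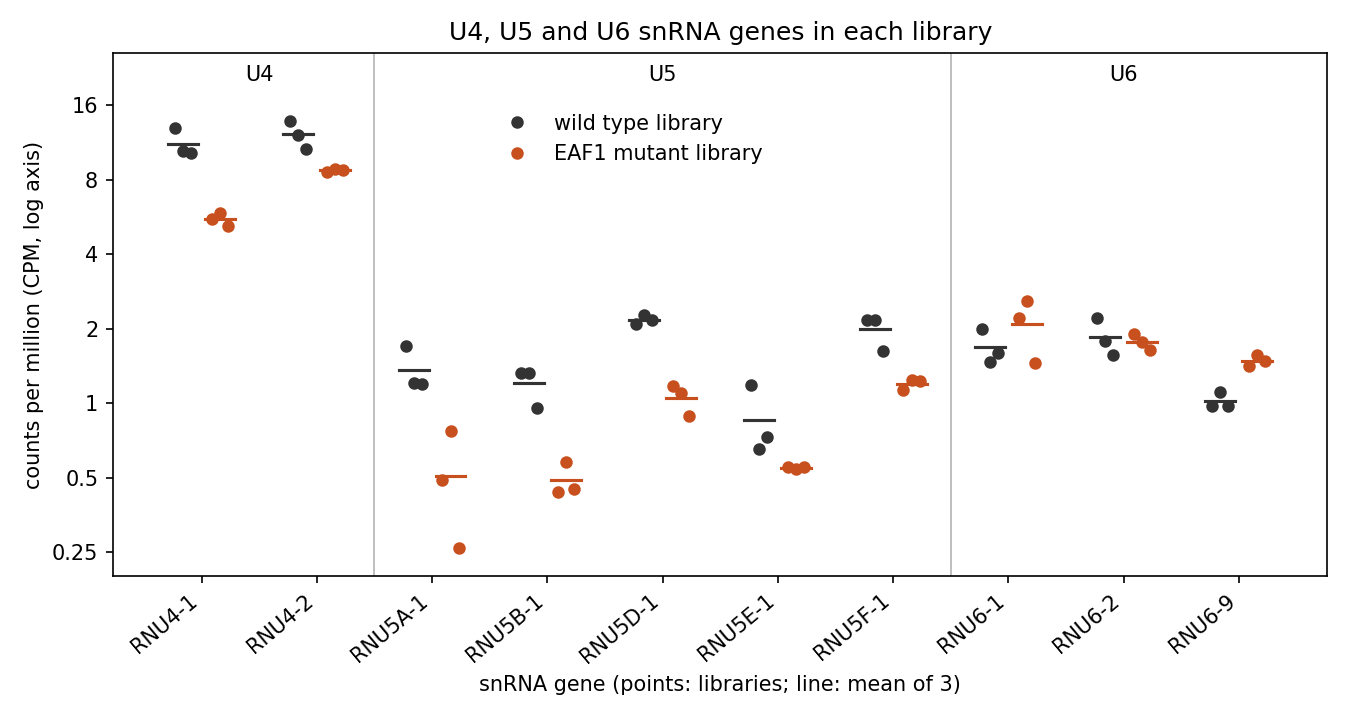
Level of each U4, U5 and U6 gene in CPM, counts scaled to a common library size, on a log axis, with 1 point per library, 3 wild-type libraries in grey and 3 EAF1-mutant libraries in orange, and a line at each group's mean. The EAF1-mutant points of the 7 U4 and U5 genes lie below all wild-type points, those of RNU6-9 lie above them, and those of RNU6-1 and RNU6-2 overlap with them.

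The U4 genes had the highest levels of the 10, per length as well. RNU4-1 had 12.9, 10.4 and 10.2 CPM (scaled to the TMM-adjusted library size) in the wild-type libraries and 5.56, 5.86 and 5.20 CPM in the EAF1-mutant ones. The mutant values lay close together and far below the wild-type ones. The means were 11.2 ± 1.51 and 5.54 ± 0.333 CPM (SD, n = 3 each), a log2FC of -1.02 with a standard error (SE) of 0.09 (adjusted p = 7.48e-10, edgeR).

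RNU4-2 had 13.9, 12.2 and 10.6 CPM in wild-type cells and 8.58, 8.87 and 8.73 CPM in EAF1-mutant cells. These groups did not overlap either, but the gap between them was smaller than for RNU4-1. The log2FC was -0.49 with an SE of 0.08 (adjusted p = 1.30e-05, edgeR), which misses the limit of 0.5 by a small margin, so RNU4-2 was not called. Without wild-type replicate 2 it was -0.50 and without wild-type replicate 3 it was -0.60, both past the limit, while without wild-type replicate 1 it was -0.40 and with library totals alone -0.37, further from it.

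The U4 genes were also compared with each other within each library, which does not depend on scaling. RNU4-2 held 51.7%, 53.9% and 50.9% of U4 counts in the wild-type libraries and 60.7%, 60.2% and 62.7% in the EAF1-mutant ones. The share was thus higher in every mutant library, with means of 52.2 ± 1.55% and 61.2 ± 1.32% (SD, n = 3 each). The difference in fold change between RNU4-1 and RNU4-2 was not tested. The sum over both genes was 23.4 ± 3.05 CPM in wild-type cells and 14.3 ± 0.415 CPM in EAF1-mutant cells (SD, n = 3 each).

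Among the U5 genes, the largest fold changes belonged to RNU5A-1 and RNU5B-1, the pair on chromosome 15. RNU5A-1 had 1.70, 1.21 and 1.20 CPM in wild-type cells and 0.487, 0.773 and 0.261 CPM in EAF1-mutant cells. Its mutant libraries varied the most among the U5 genes, and the lowest rests on 18 counts. The log2FC was -1.47 with an SE of 0.25 (adjusted p = 3.54e-05, edgeR). RNU5B-1 had 1.33, 1.33 and 0.953 CPM in wild-type cells and 0.437, 0.576 and 0.449 CPM in EAF1-mutant cells. The mutant values were again all below the wild-type ones, with a log2FC of -1.31 and an SE of 0.21 (adjusted p = 1.14e-05, edgeR).

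RNU5D-1 and RNU5F-1, neighbours on chromosome 1, had the highest U5 levels per length in wild-type cells. RNU5D-1 had 2.09, 2.28 and 2.17 CPM in wild-type cells and 1.18, 1.10 and 0.883 CPM in EAF1-mutant cells. This was the tightest wild-type group among the U5 genes, and the log2FC was -1.06 with an SE of 0.15 (adjusted p = 2.00e-06, edgeR). RNU5F-1 had 2.16, 2.18 and 1.63 CPM in wild-type cells and 1.13, 1.24 and 1.23 CPM in EAF1-mutant cells, a log2FC of -0.73 with an SE of 0.15 (adjusted p = 2.87e-04, edgeR). Both genes were called lower.

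RNU5E-1 had the lowest U5 level per length in wild-type cells and was not called. It had 1.18, 0.653 and 0.729 CPM in wild-type cells and 0.554, 0.540 and 0.550 CPM in EAF1-mutant cells. The groups did not overlap, but wild-type replicate 1 stood apart from the other wild-type libraries, and the log2FC of -0.65 had an SE of 0.23 (adjusted p = 0.0226, edgeR). Without that library it was -0.35 (adjusted p = 0.256, edgeR), and without wild-type replicate 2 it was -0.82 (adjusted p = 0.00728, edgeR), past the threshold; over all alternatives the adjusted p ran from 0.00728 to 0.256. Summed over the 5 genes, U5 had 7.59 ± 0.892 CPM in wild-type cells and 3.79 ± 0.426 CPM in EAF1-mutant cells (SD, n = 3 each).

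RNU6-1, RNU6-2 and RNU6-9 share a single sequence, and of these RNU6-9 alone was called. RNU6-1 had 2.00, 1.46 and 1.59 CPM in wild-type cells and 2.22, 2.59 and 1.45 CPM in EAF1-mutant cells. Mutant replicates 1 and 2 were above all wild-type libraries and mutant replicate 3 was below them all. The log2FC was 0.29, which is also the U6 median, with an SE of 0.18 (adjusted p = 0.188, edgeR). It was 0.51 without mutant replicate 3 (adjusted p = 0.0113, edgeR), 0.10 without mutant replicate 2 and 0.19 without wild-type replicate 2, so its size depends on single libraries; over all alternatives the adjusted p ran from 0.0113 to 0.688.

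RNU6-2 had 2.21, 1.78 and 1.57 CPM in wild-type cells and 1.90, 1.76 and 1.64 CPM in EAF1-mutant cells. The mutant values lay within the wild-type range, and the log2FC was -0.08 with an SE of 0.15 (adjusted p = 0.689, edgeR). Its sign was not stable, being 0.04 with library totals alone and 0.06 without wild-type replicate 1.

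RNU6-9 had 0.973, 1.11 and 0.972 CPM in wild-type cells and 1.41, 1.56 and 1.48 CPM in EAF1-mutant cells. It was the only U6 gene of the 3 whose groups were apart, with a log2FC of 0.55 and an SE of 0.15 (adjusted p = 0.00501, edgeR). The call was close to both thresholds. DESeq2 gave 0.53 (adjusted p = 0.0503), and the call was also lost without wild-type replicate 1 (0.50), wild-type replicate 3 (0.50), mutant replicate 2 (0.51) or mutant replicate 3 (0.55), with adjusted p values up to 0.0237 (edgeR). Over all alternatives the adjusted p ran from 8.90e-04 to 0.0503.

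Neither of the other U6 copies listed, RNU6-7 and RNU6-8, was called higher by edgeR or DESeq2. RNU6-8 had 1.66, 1.74 and 1.64 CPM in wild-type cells and 1.19, 1.28 and 1.09 CPM in EAF1-mutant cells and was called lower, at a log2FC of -0.51 with an SE of 0.15 (adjusted p = 0.00518, edgeR). That call was lost with library totals alone and with DESeq2, and the 12 tested genes within 1 Mb had a median log2FC of -0.48, from which RNU6-8 differed by -0.03. RNU6-7 had a log2FC of -0.20 (adjusted p = 0.544, edgeR) and differed by 0.28 from its neighbours' median, which was also -0.48. Because reads of near-identical genes may have been divided among them, these differences between U6 genes are uncertain. Sums over the named U6 genes leave out other copies of the sequence, so they carry this uncertainty too.

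Summed over the 3 genes, U6 had 4.55 ± 0.554 CPM in wild-type cells and 5.33 ± 0.698 CPM in EAF1-mutant cells (SD, n = 3 each). The ratio of U6 counts to the counts of all U4 and U5 genes sets the Pol III members against the Pol II members within each library, with no scaling involved. It was 0.147, 0.144 and 0.150 in the wild-type libraries and 0.308, 0.312 and 0.264 in the EAF1-mutant ones. Every mutant library lay well above every wild-type library, and the mean ratio was 2.00 times as high. With RNU6-7 and RNU6-8 added to U6, a choice made after values were seen, the ratio was 0.212, 0.220 and 0.227 against 0.394, 0.407 and 0.360, or 1.76 times as high. The ratio shows that the counts of the classes changed unequally, not that U6 was constant. Reads placed on other copies of the U6 sequence are missing from it. No test was made of the ratio because the members were chosen with results of these data known.

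**Figure D2:**
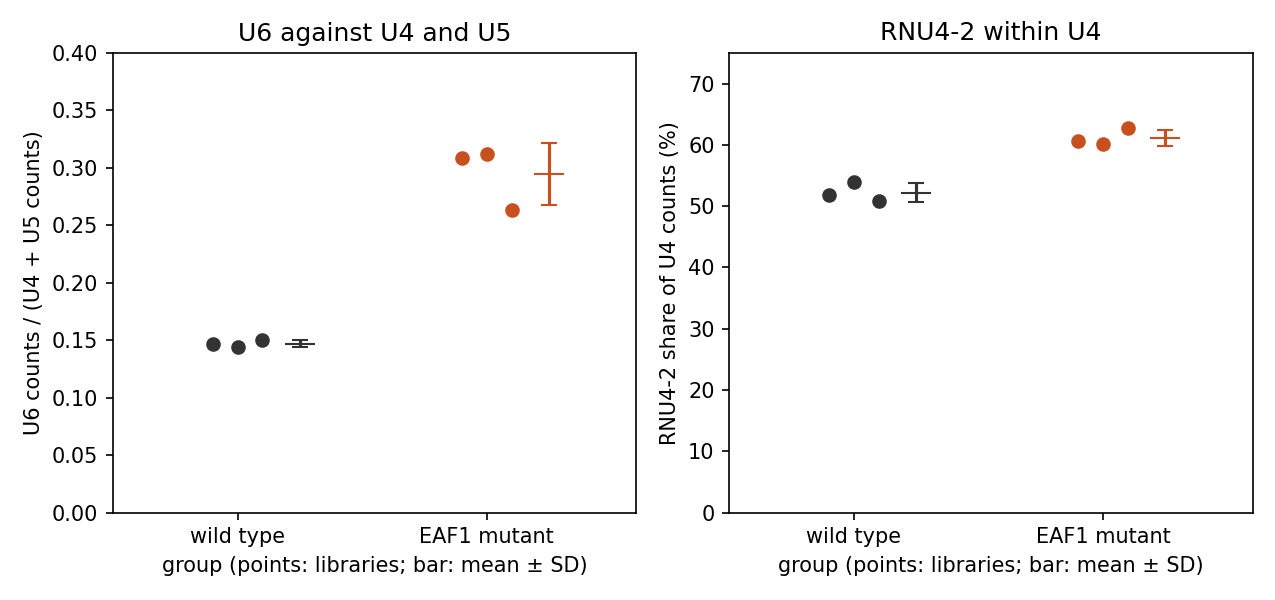
Left, counts of the 3 U6 genes divided by counts of the 7 U4 and U5 genes; right, share of U4 counts on RNU4-2 in percent, with 1 point per library and the mean ± SD of 3 libraries beside the points. The ratio was 0.144 to 0.150 in wild-type and 0.264 to 0.312 in EAF1-mutant libraries, and the share was 50.9% to 53.9% against 60.2% to 62.7%.

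Levels were compared between genes as CPM per kilobase of RNA. In wild-type cells RNU4-2 (86.6 ± 11.5) and RNU4-1 (79.4 ± 10.7, SD, n = 3 each) came first. Their ranges over libraries overlapped, but RNU4-2 was above RNU4-1 within each wild-type library. Next came RNU5D-1 at 18.8 ± 0.816, RNU6-2 at 17.3 ± 3.05, RNU5F-1 at 17.0 ± 2.67 and RNU6-1 at 15.7 ± 2.61 CPM per kilobase, where neighbours in the order did not differ beyond their spread. They were followed by RNU5A-1 at 11.8 ± 2.47, RNU5B-1 at 10.4 ± 1.86, RNU6-9 at 9.51 ± 0.733 and RNU5E-1 at 7.13 ± 2.40 CPM per kilobase, where neighbours in the order also overlapped.

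The order was different in the mutant. In EAF1-mutant cells RNU4-2 led with 61.9 ± 1.02 CPM per kilobase and RNU4-1 followed with 39.3 ± 2.36, a gap larger than the spread of either. The 3 U6 genes came next, at 19.5 ± 5.44 for RNU6-1, 16.5 ± 1.22 for RNU6-2 and 13.9 ± 0.723 CPM per kilobase for RNU6-9, and so stood above all 5 U5 genes. How reads shared with other copies of the U6 sequence were counted is not stated, so the place of the U6 genes is uncertain in both orders. RNU5F-1 had 10.2 ± 0.549 and RNU5D-1 9.07 ± 1.30 CPM per kilobase, and RNU5E-1 (4.57 ± 0.0629), RNU5A-1 (4.37 ± 2.22) and RNU5B-1 (4.20 ± 0.663) could not be ordered (SD, n = 3 each).

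These RNAs are short for a library of this kind, and together the 10 genes held 0.00341% of the counts in wild-type and 0.00243% in EAF1-mutant libraries. Their levels therefore compare libraries and genes within this protocol and do not give the amount of the RNA in a cell. Sums over other short RNAs differed between the groups too. The sum over all genes of biotype snoRNA, which guide RNA modification, was 10673, 10443 and 9101 CPM in the wild-type libraries and 6614, 7392 and 6677 CPM in the EAF1-mutant ones. The sum over genes of biotype snRNA other than RN7SK was 2999, 2982 and 2460 CPM against 2275, 2342 and 2434 CPM. With TMM scaling it was thus lower in each mutant library, but 2460 and 2434 CPM lay close. The TMM factors of those libraries, wild-type replicate 3 and mutant replicate 3, were 0.963 and 1.04, so this order depends on the scaling. RN7SK alone, which has the same biotype, had 14303, 13649 and 13672 CPM against 19955, 20558 and 20341 CPM, so that with it the sum was higher in the mutant. The part of these differences in the U4 and U5 result was not tested.

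Other Pol II-transcribed snRNA genes differed among themselves. Of 9 listed, 8 were tested, with a median of -0.34. All 8 had an unadjusted p under 0.05, which 56.2% of all tested genes had. By edgeR, 3 were called lower, beside 9.36% of all tested genes, and none higher. The 3 were RNU11 (log2FC -1.22, SE 0.12, adjusted p = 1.16e-08, edgeR), RNU12 (-1.13) and RNU4ATAC (-1.12), all RNAs of the minor spliceosome, which removes a rare class of introns and also uses U5. The U1 genes RNU1-1, RNU1-2, RNU1-3 and RNU1-4, whose RNA recognises the 5′ splice site, had log2FC values of -0.27, -0.14, -0.28 and -0.14, and RNU7-1, whose RNA serves histone mRNA processing, had -0.40; none was called by edgeR. RNU2-1 held 1 to 6 counts per library and was not tested.

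Other Pol III genes with promoters of the U6 type did not share a direction. Of 8 listed, 7 were counted and 5 tested, and edgeR called 2 of these lower and 1 higher. The shares among all tested genes were 9.36% lower and 11.0% higher. RPPH1, the RNA of ribonuclease P, and RNY1, a Y RNA, were called lower at log2FC values of -0.64 and -0.59, the latter not with library totals alone. RN7SK, the RNA that holds the elongation factor P-TEFb inactive, was called higher at 0.55 with an SE of 0.03 (adjusted p = 1.10e-12, edgeR), with 13874 ± 371 CPM in wild-type cells against 20285 ± 305 CPM in the mutant (SD, n = 3 each). RMRP, of ribonuclease MRP, had 0.03 and RNU6ATAC, the U6 of the minor spliceosome, -0.19, and neither was called. RNY3 and RNY4 were not tested, and RNY5 was not among the genes counted. The median of the 5 was -0.19, and DESeq2 called 2 of them.

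**Figure D3:**
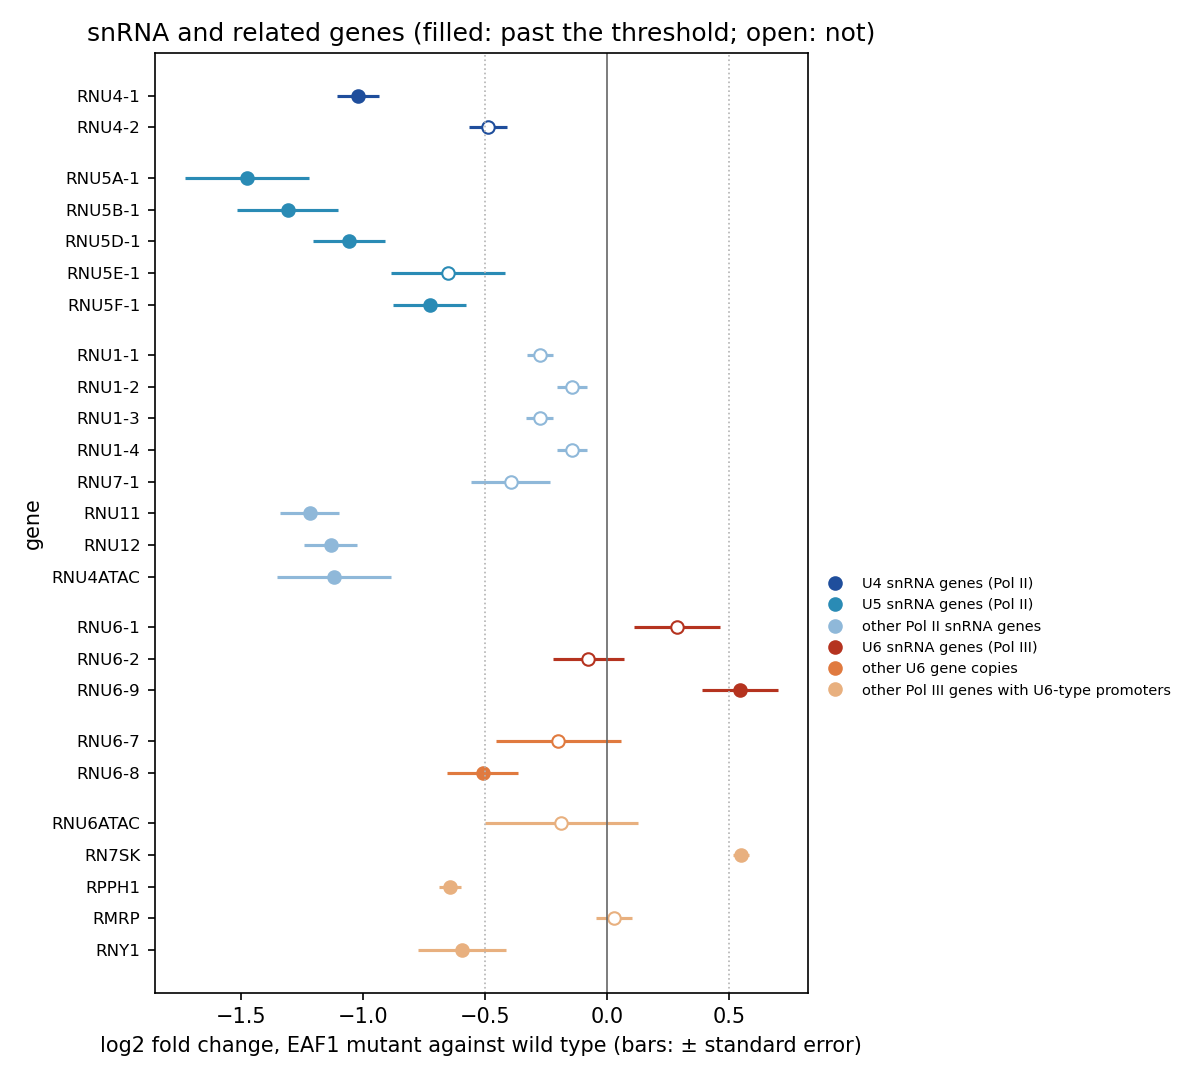
Log2 fold change in EAF1-mutant against wild-type cells with its standard error (edgeR, 3 libraries each) for U4, U5 and U6 genes and other snRNA and Pol III genes, with filled points for genes past the threshold and dotted lines at the limit of 0.5 in size. The 7 U4 and U5 genes lie between -1.47 and -0.49 and the 3 U6 genes between -0.08 and 0.55.

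Annotated copies outside the named genes were looked at after values were seen. Of 26 counted U5 copies whose symbols end in P, 5 were tested and 3 were called lower, with a median log2FC of -1.09. The same number, 3, had an unadjusted p under 0.05, and DESeq2 called 2. Of 88 such U4 copies, 10 were tested and none was called by edgeR or DESeq2 (4 at an unadjusted p under 0.05), with a median of -0.25. Of 1271 U6 copies, 142 were tested, 5 were called lower and 3 higher, and the median was -0.02. Of the 142, 22 had an unadjusted p under 0.05, and DESeq2 called 5. Among all tested genes, 9.36% were called lower and 11.0% higher, and 56.2% had an unadjusted p under 0.05. Reads of the main genes may fall on these copies, so they are no separate measurement.

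Among 1162 other tested small RNA genes, those with the profile over the 6 libraries closest to the mean of the U4 and U5 genes were SNORD3B-1, RNU6-539P and SNORD3B-2. Their root mean square differences in centred log2 CPM were 0.08, 0.09 and 0.11, beside a median of 0.52 over all candidates. SNORD3B-1 and SNORD3B-2 encode U3, a snoRNA of ribosomal RNA processing, and were called lower at log2FC values of -0.83 and -0.78. RNU6-539P, a U6 copy with 0.280 ± 0.0323 CPM in wild-type cells against 0.133 ± 0.0303 CPM in the mutant (SD, n = 3 each), had -1.09 and was not called (adjusted p = 0.0173, edgeR). These genes were picked for a profile like that of the U4 and U5 genes in the same libraries, so their lower levels follow from the choice.

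Genes near the snRNA genes were used to see whether whole stretches of chromosome differed. Around RNU4-1 and RNU4-2, the 46 tested genes within 1 Mb on each side had a median log2FC of -0.08. By edgeR, 2 of them were called higher and none lower. Around RNU5A-1 and RNU5B-1 the median of 43 genes was -0.12, with 4 called lower and none higher by edgeR. For comparison, 9.36% of all tested genes were called lower and 11.0% higher. Around RNU5D-1, RNU5F-1 and RNU5E-1 the median was 0.36, 0.36 and 0.44, so these U5 genes were lower among neighbours with raised medians. There 17 of 59, 17 of 60 and 8 of 36 tested genes were called higher, and 1 lower in each case. The median around RNU6-1 was -0.35, with 5 of 22 tested genes called lower and 1 higher. Those around RNU6-2 and RNU6-9 were 0.21 each. Near these genes, 27 of 103 and 27 of 95 tested genes were called higher and none lower by edgeR. Less its neighbours' median, the log2FC was 0.63 for RNU6-1, 0.34 for RNU6-9 and -0.29 for RNU6-2. The same difference was -0.41 for RNU4-2 and -0.94 for RNU4-1, and it ran from -1.42 for RNU5D-1 to -1.09 for RNU5F-1 among the U5 genes. Of genes overlapping the members on the opposite strand, PARP16 had -0.02 (adjusted p = 0.812, edgeR), and ARMH1, over RNU5F-1, was called higher (0.336 against 0.946 mean CPM, adjusted p = 1.12e-05, edgeR). The long noncoding RNA gene over RNU6-1, ENSG00000259410, had 0.112 against 0.215 mean CPM and was not tested.

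**Figure D4:**
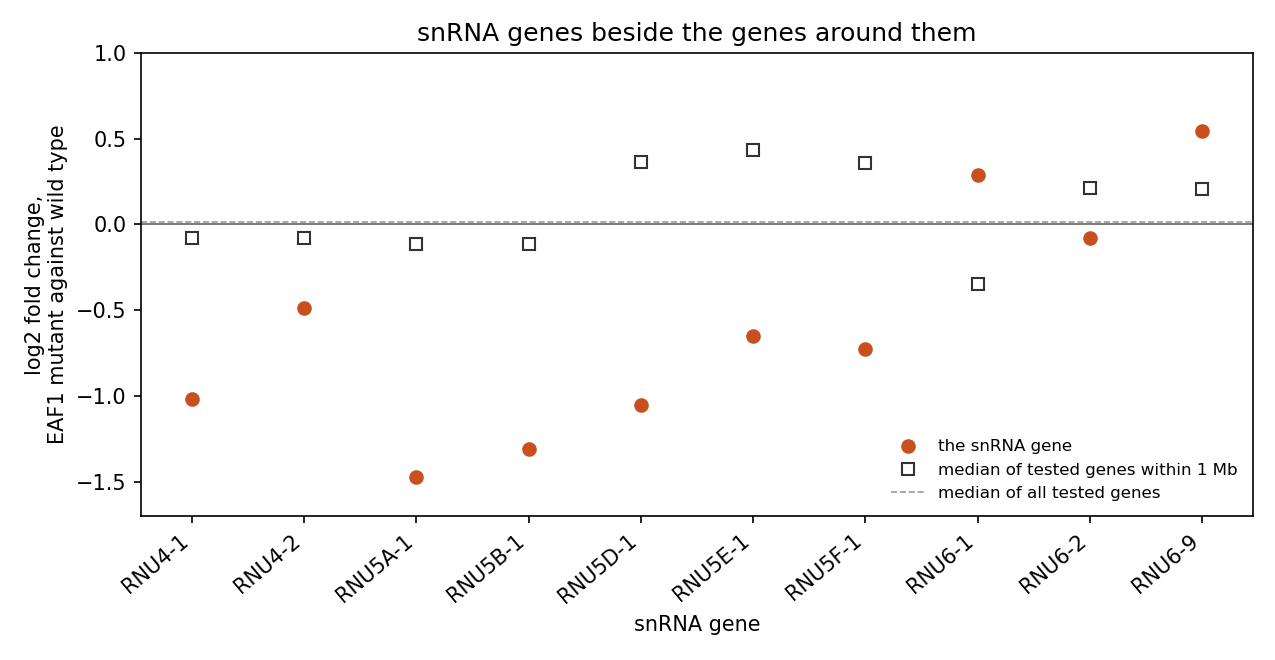
Log2 fold change in EAF1-mutant against wild-type cells of each U4, U5 and U6 gene (filled circles) and the median over tested genes within 1 Mb of it (open squares), with the median of all tested genes as a dashed line. All 7 U4 and U5 genes lie below their neighbours' median, with differences from -0.41 for RNU4-2 to -1.42 for RNU5D-1, RNU6-2 lies below its own as well, with a difference of -0.29, and RNU6-1 and RNU6-9 lie above theirs.

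Genes for proteins that work with these RNAs were taken from the lists. By edgeR, 9.36% of all tested genes were called lower and 11.0% higher, and 56.2% had an unadjusted p under 0.05. Of 8 genes for U5 snRNP proteins, none was called by edgeR or DESeq2 (5 at an unadjusted p under 0.05), and their median log2FC was 0.02. Values ran from -0.17 for SNRNP40 to 0.32 for PRPF6, which bridges U5 and the U4/U6 snRNP. PRPF8, the large protein at the heart of U5, had a log2FC of -0.09, and SNRNP200, the helicase that unwinds U4 from U6, had 0.13. The others were TXNL4A at -0.17, DDX23 at 0.01, EFTUD2 at 0.02 and CD2BP2 at 0.09. Of 9 genes for U4/U6 and tri-snRNP proteins, none was called by edgeR or DESeq2 (4 at an unadjusted p under 0.05), with a median of -0.05 and a range from -0.31 for PRPF3 to 0.14 for PRPF31. Between them lay SNU13 at -0.18, PRPF4 at -0.16, SART3 at -0.07, PPIH at -0.05, SNRNP27 at -0.03, USP39 at 0.03 and SART1 at 0.06.

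The LSm ring binds the 3′ end of U6. Of its 7 genes, LSM3 alone was called, lower at a log2FC of -1.58 with an SE of 0.04 (adjusted p = 2.86e-18, edgeR), and the median of the 7 was -0.27 (-0.15 with library totals alone). The other log2FC values were -0.40 for LSM7, -0.33 for LSM6, -0.27 for LSM2, -0.13 for LSM5, -0.10 for LSM8 and 0.15 for LSM4. All 7 had an unadjusted p under 0.05, beside 56.2% of all tested genes, and the groups did not overlap for 6, beside 57.3%. LSM3 lies on chromosome 3, like EAF1, and 17 of 20 tested genes within 1 Mb of it were called lower, beside 9.36% of all tested genes. The median of the 20 was -1.65. Of 5 enzymes and partners of U6 maturation, none was called by edgeR or DESeq2 (3 at an unadjusted p under 0.05), and their median was 0.09. The methyltransferase METTL16 had -0.08, the exonuclease USB1 -0.06, LARP7 0.09, TUT1 0.13 and MEPCE 0.27.

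The promoters of both classes are bound by the SNAPc complex. Of 11 snRNA promoter factors, SNAPC4, its largest subunit, was called higher at a log2FC of 0.65 with an SE of 0.04 (adjusted p = 9.14e-12, edgeR), among neighbours with a median of 0.44. None of the other 10 was called by edgeR (7 of the 11 had an unadjusted p under 0.05, and DESeq2 called 1), and the median of the list was -0.02. The shares of all tested genes were 9.36% called lower, 11.0% called higher and 56.2% with an unadjusted p under 0.05 (edgeR).

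The mutated gene itself is a point mutant whose RNA can still be counted, so its level does not check the labels. EAF1 had 57.5, 58.4 and 56.5 CPM in wild-type cells and 19.7, 17.9 and 18.8 CPM in EAF1-mutant cells, a log2FC of -1.61 (adjusted p = 2.48e-18, edgeR). Of the 32 other tested genes within 1 Mb, 15 were called lower, and the median of the 32 was -0.70. For all tested genes, 9.36% were called lower and 11.0% higher. Of the 7 LEC genes and relatives listed, EAF2, the paralogue of EAF1, was called higher at 0.97, and ELL, ELL2, ICE1, ICE2 and ZC3H8 were not called by edgeR, with log2FC values from -0.15 to 0.33. The study describes EAF1 protein as little changed in this line; protein is not part of these data.

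Markers of the cell line were checked in the same libraries. Of 6 kidney and neural genes known in HEK293 cells, all were tested, NEFM and VIM were called lower at -1.31 and -0.93 and KRT18 higher at 0.82. The shares of all tested genes were 9.36% called lower and 11.0% called higher. LHX1 at -0.17, NEFL at -0.15 and PAX2 at 0.33 were not called. Their summed level was 525, 535 and 553 CPM in the wild-type libraries against 338, 336 and 345 CPM in the mutant ones, with VIM the most abundant. Of 5 markers of other cell types, PTPRC, HBB and CD3E held 0 to 3 counts per library, ALB held 1 to 13, and EPCAM, the most abundant, rose from 0.243 to 1.46 CPM, so that their sum was 0.318, 0.356 and 0.262 CPM against 1.75, 1.53 and 1.62 CPM. The part of these differences between the lines in the snRNA values was not tested.

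Scaling moved the values of all genes together. When the fit used library totals and no TMM factors, the median of all tested genes was 0.13 and 1840 genes were called lower and 4169 higher, against 2624 and 3071 with TMM. The U4 median was then -0.64, the U5 median -0.94 and the U6 median 0.40, and the same number of members, 5 U4 and U5 genes and 1 U6 gene, were called.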

How the data were processed

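Total RNA of HEK293T cells depleted of ribosomal RNA was sequenced as stranded paired-end libraries, 3 wild-type and 3 EAF1-mutant, grouped by their labels. Reads were trimmed, aligned to GRCh38 (HISAT2) and assigned to Ensembl genes (Rsubread) by the authors, who deposited unnormalized counts. Symbols, positions and RNA sequences came from GENCODE v44 on GRCh38, which covers 57754 of the 58395 genes; the 641 others held 2.81% of the counts. TMM factors, the filterByExpr filter, CPM, log2 CPM (prior count 2) and quasi-likelihood tests were computed with edgeR 4.0.16 (R 4.3.3), with Benjamini-Hochberg adjustment over 28025 genes; the procedure was tested on simulated data. The standard error is the size of the log2 fold change divided by the square root of the F statistic. Depths of 52541541 to 66611451 counts let genes below 1 CPM enter the tests. Replicates differed beyond counting noise (mean chi-square per gene of 2.65 to 7.85). DESeq2 1.42.0, other scalings and filters, a replicate block, each library left out and a looser threshold were alternatives. Identities came from global alignments in Biopython 1.88. Named genes were all members, lists of up to 9 genes in full, the largest rise and fall past the threshold in other lists, the 3 closest profiles and overlapping or neighbouring genes. Members and lists were chosen with earlier results of these data known. ELL ChIP-seq values, which cover histone genes, and upstream promoter windows were not analysed here, and the sequences of the U5 and U6 RNAs are not reported here.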

Additional observations from a re-analysis of the deposited data

How the results depend on the processing

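The 7 U4 and U5 genes kept a log2 fold change below 0 under every alternative run for them; 4 to 7 of them were called lower, 4 where at least 1 CPM in 3 libraries was required, which left out RNU5B-1 and RNU5E-1. The number of U6 genes called, 1 in the main result, was 0 with DESeq2 and ran from 0 to 1 with a library left out; it was 0 without wild-type replicate 1, wild-type replicate 3, mutant replicate 2 or mutant replicate 3, and the cause was not tested. The log2 fold change of RNU6-2 changed sign, to 0.0385 with library totals alone, and ran from -0.2013 to 0.0608 with a library left out, above 0 without wild-type replicate 1. With an adjusted p under 0.05 and any fold change, which loosens both limits, 7170 genes were lower and 7250 higher. Replicate numbers did not pair the libraries: deviations of same-numbered libraries correlated at -0.0054, -0.0166 and 0.0097, and not every library correlated best with its own number. With the replicate number as a block, 2631 genes were lower and 3055 higher, 5 U4 and U5 genes were lower and 1 U6 gene was called, so no such count moved by over 1.5 times. Of the other alternatives for single members, 108 kept their direction and side of the threshold. Counts of 18 to 144 per library for U5 and U6 genes limit what smaller differences could be seen.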
